A study of Mus musculus with 32 samples.

Results

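The inflammatory chemokines examined here are 10 genes chosen by symbol from the 22337 genes of the deposited tables: Ccl2, Ccl3, Ccl4, Ccl5, Ccl6, Ccl9, Ccl12, Cxcl9, Cxcl10 and Cxcl16. All 10 were found. The RNA-seq data cover 32 samples, and each sample came from 1 male mouse aged 6 months on a C57BL/6J background. Hippocampus (HP) came from 4 WT, 4 5xFAD and 4 5xFAD+L mice, meninges (M) from 4, 3 and 3 mice, and sorted lymphatic endothelial cells of the meninges (LECs) from 4, 3 and 3 mice. 5xFAD mice carry human transgenes with mutations of familial Alzheimer's disease under Thy1 regulatory sequence, which drives them mainly in neurons, and develop amyloid plaques. WT mice were littermates without the transgenes. 5xFAD+L mice carried the same transgenes and received repeated near-infrared light through the shaved scalp, while the other mice were handled and anaesthetised alike under room light. LECs were sorted as CD45-CD31+PDPN+ cells after the meninges had been digested with collagenase, whereas hippocampus and meninges were lysed whole. The comparisons ask whether the chemokine genes differed with the transgenes in each tissue, and whether they differed with light in mice that carry them.

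Chemokines are small secreted proteins that guide leukocytes along a concentration gradient by acting on G protein-coupled receptors. Ccl3, Ccl4 and Ccl5 attract T cells and myeloid cells (Ccl3 and Ccl5 in part through Ccr1), Ccl6 and Ccl9 are rodent chemokines that act on Ccr1, and Ccl2 and Ccl12 attract monocytes through Ccr2. Cxcl9 and Cxcl10 are induced by interferons and attract activated T cells through Cxcr3, and Cxcl16 is made as a membrane-bound protein whose receptor is Cxcr6. In the brain, microglia are a main source of Ccl3, Ccl4, Ccl6 and Ccl12, and microglia around amyloid plaques are known to express several of these genes.

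In GENCODE vM21 on GRCm38, 8 of the 10 genes lie on chromosome 11. Ccl2 (82035571 to 82037453, plus strand) and Ccl12 (82101845 to 82103400, plus strand) lie within 67.8 kb. Ccl5 (83525778 to 83530518), Ccl9 (83572919 to 83578636), Ccl6 (83587882 to 83593087) and Ccl3 (83647844 to 83649355), all on the minus strand, and Ccl4 (83662584 to 83664683) on the plus strand lie within 139 kb. Cxcl16 lies apart from these (70453983 to 70459984, minus strand). Cxcl9 (92321347 to 92328079) and Cxcl10 (92346638 to 92348889) are neighbours on the minus strand of chromosome 5. Exons of Cxcl10 overlap exons of Art3, and exons of Cxcl16 overlap exons of Zmynd15, on the opposite strand in each case, and the library method keeps no strand. Mean FPKM, that is fragments per kilobase of transcript scaled to library size, of Art3 was 4.82 in WT and 4.55 in 5xFAD hippocampus, and that of Zmynd15 was 0.0825 and 0.130.

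RefSeq promoters on GRCm38.p6 were given for 6 of the 10 genes, Ccl3, Ccl6, Ccl9, Ccl12, Cxcl9 and Cxcl10. The 250 bases before the start are shown 5′ to 3′ for 4 of them: Cxcl10 and Cxcl9 because they held motifs for NF-kB and interferon-responsive factors, and Ccl12 and Ccl3 because they lie in the gene clusters on chromosome 11 and differed across the hippocampal libraries. Capitals mark matches to the searched motifs.
Cxcl10, chr5:92348890-92349139, minus strand: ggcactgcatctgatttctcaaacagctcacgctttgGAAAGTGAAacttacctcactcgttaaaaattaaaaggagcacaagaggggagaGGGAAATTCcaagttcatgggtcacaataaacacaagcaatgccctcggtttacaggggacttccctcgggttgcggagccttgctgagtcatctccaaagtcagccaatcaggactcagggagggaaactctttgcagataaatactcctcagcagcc
Cxcl9, chr5:92328080-92328329, minus strand: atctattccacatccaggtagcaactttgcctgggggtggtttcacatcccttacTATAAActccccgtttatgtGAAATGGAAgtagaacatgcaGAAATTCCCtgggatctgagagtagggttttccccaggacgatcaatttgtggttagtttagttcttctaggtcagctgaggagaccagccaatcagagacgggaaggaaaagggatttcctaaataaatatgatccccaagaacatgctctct
Ccl12, chr11:82101595-82101844, plus strand: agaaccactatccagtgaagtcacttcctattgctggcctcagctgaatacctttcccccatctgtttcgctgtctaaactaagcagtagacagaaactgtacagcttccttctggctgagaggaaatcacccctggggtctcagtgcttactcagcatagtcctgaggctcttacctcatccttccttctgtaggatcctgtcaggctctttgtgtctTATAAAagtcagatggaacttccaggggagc
Ccl3, chr11:83649379-83649628, minus strand: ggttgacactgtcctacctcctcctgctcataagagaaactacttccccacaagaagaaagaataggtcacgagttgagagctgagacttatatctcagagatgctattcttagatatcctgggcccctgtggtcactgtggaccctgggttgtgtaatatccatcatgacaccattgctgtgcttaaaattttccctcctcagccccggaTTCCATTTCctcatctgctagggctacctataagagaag
For Ccl3 the RefSeq start lies upstream of the GENCODE start given above, and 0 GENCODE transcripts held the first 30 bases after it, against 1 for each of the other genes. The motifs were searched on both strands, and a match is a description of letters in a short window, since no binding was measured. The kB motif GGGANNTTC was found in Cxcl10 (159 bases before the start) and Cxcl9, against 3.18% of 27018 promoters. The interferon-stimulated response motif GAAANNGAA was found in Cxcl10 (213 bases before the start), Cxcl9 and Ccl3, against 7.16% of promoters. Stricter forms, with a further C at the end of the kB motif and a further A at the end of the interferon motif, were each found in Cxcl10 alone of the 6, against 1.17% and 3.04% of promoters. The shorter forms were chosen after the stricter ones had been searched, so their shares are descriptions only. Sites with other kB letters were not searched and are not marked. The TATA box TATAAA was found in Ccl9, Ccl12 and Cxcl9, against 13% of promoters, and the Ccl12 match begins 31 bases before the start. The GAS motif TTCNNNGAA was in none of the 6 windows, against 7.18% of promoters.

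Libraries held 13952825 to 23856476 total counts for hippocampus, 6601143 to 14708202 for meninges and 14231415 to 24207326 for LECs, and between 5998 and 9020 genes had counts in an LEC library against 16371 to 19769 in the tissues. The spread between replicates, as the biological coefficient of variation, was 0.198 in hippocampus, 0.350 in meninges and 1.89 in LECs. Prox1, which in the hippocampus marks granule neurons of the dentate gyrus, was 2.43 FPKM in 5xFAD replicate 3 and 8.06 to 27.5 in the other 11 hippocampal libraries. Choroid plexus markers, summed over 4 genes, ranged from 35.9 to 3180 FPKM among hippocampal libraries. In the LECs the endothelial gene Pecam1 (189 to 398 FPKM) and the lymphatic receptor Flt4 (3.83 to 81.6) were present in all 10 libraries, but Prox1, the transcription factor that defines lymphatic endothelium, was at 0 in 3 of the 10 and Lyve1 in 2. The leukocyte gene Ptprc was at 0 in all 10. Genes listed for blood endothelium (Cldn5, Pecam1, Cdh5, Kdr, Slco1a4 and Flt1) summed to 1003 to 3285 FPKM in WT, 1241 to 2745 in 5xFAD and 974.5 to 1449 in 5xFAD+L LECs. Genes listed for lymphatic endothelium summed to 37.97 to 6736, 1156 to 4503 and 3079 to 9746. Among them Ccl21a, also a chemokine ligand gene, alone was 0 to 6534, 998 to 4344 and 2896 to 9356. The part of either endothelium in the chemokine levels of the LECs was not tested.

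All 10 chemokine genes were higher in every 5xFAD hippocampal library than in every WT hippocampal library. Of the 8 genes that passed the filter on low values (3 or more of the 12 libraries at an FPKM of 1 or above), 8 rose in 5xFAD by edgeR, with the thresholds set at 0.05 for the adjusted p and at 2-fold for the change, and among all 12981 genes tested 4.23% rose and 8.75% were higher in every sample. Ccl3, Ccl4, Ccl5 and Cxcl10 passed the filter only through the 5xFAD and 5xFAD+L libraries, since no WT library reached an FPKM of 1, so for these 4 genes passing the filter and being higher are not independent. Ccl2 and Cxcl9 did not pass. In whole tissue, more cells that express a gene and more RNA per cell cannot be told apart, here and in the comparisons that follow.

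Ccl3, Ccl4 and Ccl5 went from near the limit of detection to levels of several FPKM. Ccl3 was 0.160, 0, 0.170 and 0.130 FPKM in WT replicates 1 to 4 and 13.5, 10.1, 4.18 and 3.86 in 5xFAD replicates 1 to 4, a log2 fold change of 5.99 ± 0.711 (SE, n = 4 and 4, adjusted p = 0.000136). Ccl4 was 0.310, 0.42, 0.1 and 0.31 in WT and 12.5, 9.31, 3.48 and 2.90 in 5xFAD (4.58 ± 0.603, adjusted p = 0.000292). For both genes 5xFAD replicates 1 and 2 were well above replicates 3 and 4, and the lowest 5xFAD library was still several times above the highest WT library. Ccl5, which T cells also make, was lower: 0.540, 0.410, 0.500 and 0.670 FPKM in WT and 3.65, 2.83, 2.36 and 1.13 in 5xFAD, a log2 fold change of 2.22 ± 0.436 (adjusted p = 0.00572).

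Ccl6 had the highest level of the 10 genes in 5xFAD hippocampus and the narrowest spread relative to its change. It was 2.18, 2.02, 2.27 and 2.38 FPKM in WT and 29.2, 26.7, 33.2 and 39.9 in 5xFAD (log2 fold change 3.87 ± 0.290, adjusted p = 1.19e-05), a 14.6-fold rise. Its neighbour Ccl9 rose least: 1.19, 0.660, 0.840 and 1.00 in WT against 2.30, 2.82, 2.46 and 2.04 in 5xFAD (1.39 ± 0.231, adjusted p = 0.00182). On the log2(FPKM + 1) scale with limma the Ccl9 change was 0.83, under the 2-fold threshold.

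Of the Ccr2 ligands, Ccl12 was 1.69, 1.33, 1.24 and 1.90 FPKM in WT and 37.8, 8.65, 9.86 and 5.91 in 5xFAD (log2 fold change 3.35 ± 0.614, adjusted p = 0.00356). The 5xFAD group mean rested largely on replicate 1: without it the log2 fold change was 2.38 (adjusted p = 0.00369). Ccl2 stayed low, at 0.250, 0.130, 0.160 and 0.0600 in WT and 1.20, 0.490, 0.600 and 0.540 in 5xFAD. With no filter on low values its log2 fold change was 2.12 ± 0.68 with an adjusted p of 0.0813, so it did not pass the threshold although the groups did not overlap.

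Of the CXC genes, Cxcl10 was 0.690, 0.550, 0.240 and 0.190 FPKM in WT and 19.5, 4.41, 5.35 and 8.84 in 5xFAD (log2 fold change 4.45 ± 0.581, adjusted p = 0.000270). Without 5xFAD replicate 1 it was 3.80. Cxcl16 was 0.660, 1.21, 0.980 and 0.730 in WT and 10.3, 4.73, 6.20 and 4.54 in 5xFAD (2.71 ± 0.331, adjusted p = 0.000164). Cxcl9 was barely detected: its counts summed to 1 over the 4 WT libraries and to 40 over the 4 5xFAD libraries, a ratio of 40.7 per total count (95% exact counting interval 6.90 to 1650, which covers counting error only). With no filter on low values the edgeR log2 fold change of Cxcl9 was 4.69 ± 0.96 (adjusted p = 0.00667), a fitted value that rests on that 1 WT count.

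**Figure D1:**
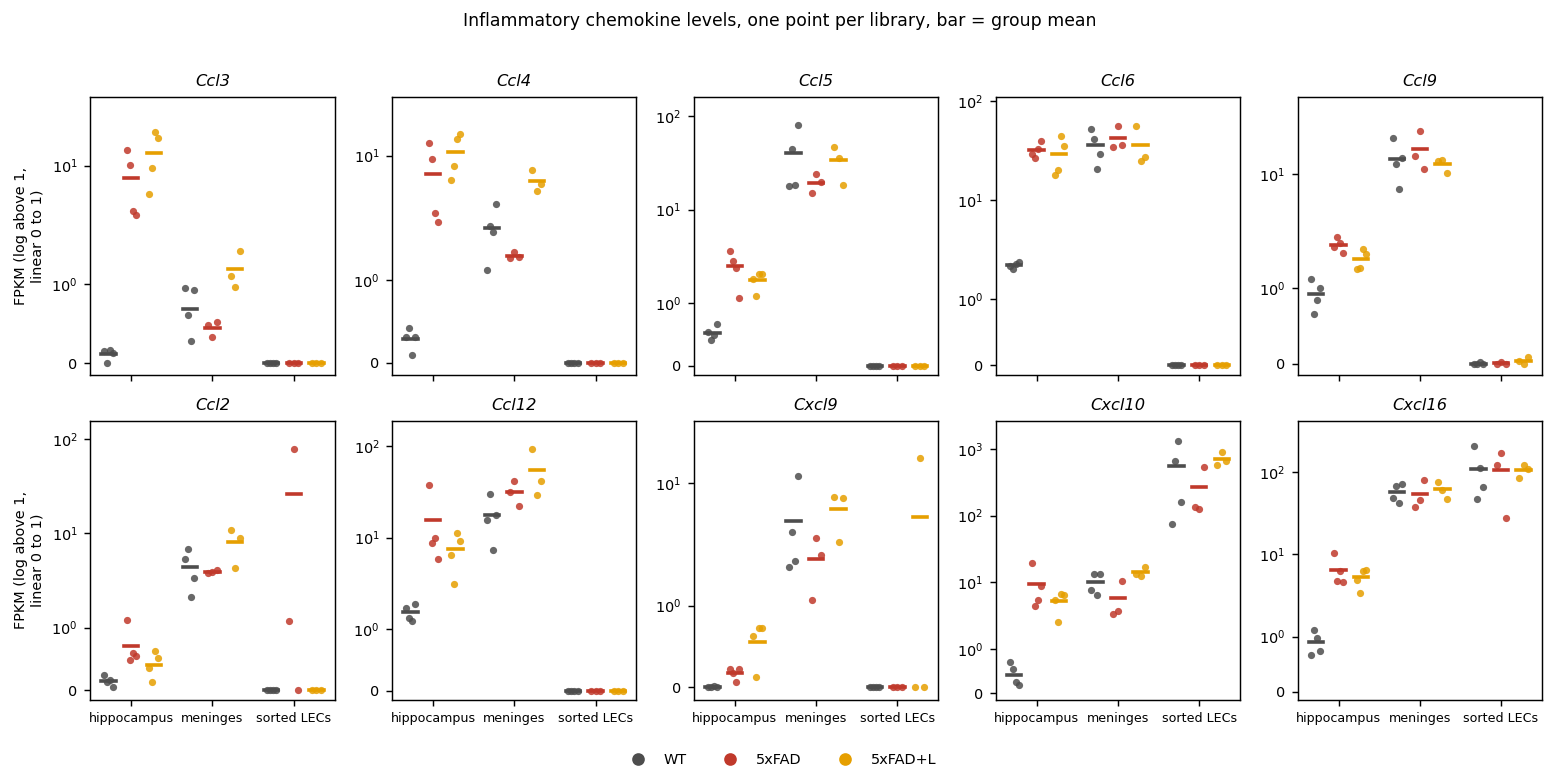
FPKM of the 10 chemokine genes (vertical axis, logarithmic above 1 and linear from 0 to 1) in each library of hippocampus, meninges and sorted LECs, with WT in grey, 5xFAD in red and 5xFAD+L in orange, a point per library and a bar at the group mean. In hippocampus each gene sits higher in all 4 5xFAD than in all 4 WT libraries, while in meninges 5xFAD and WT overlap for all 10 genes and Ccl2, Ccl3, Ccl4 and Cxcl10 sit higher in every 5xFAD+L than in every 5xFAD library, and in LECs only Cxcl10 and Cxcl16 are present in every library.

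Summed levels of leukocyte, microglial and other cell type genes also differed between the same libraries. Ptprc, the pan-leukocyte gene, was 0.500 to 0.970 FPKM in WT, 2.75 to 4.09 in 5xFAD and 2.46 to 3.42 in 5xFAD+L hippocampus. Of 7 general leukocyte genes, 6 rose in 5xFAD (median log2 fold change 2.17 over the 7, against 0.015 over all genes tested), and their summed level was 243 to 291 FPKM in WT, 850 to 1331 in 5xFAD and 629 to 1167 in 5xFAD+L. Of 7 homeostatic microglial genes, 4 rose (median 1.44; summed level 199 to 224, 472 to 654 and 387 to 568). Of 15 genes of plaque-associated microglia, 10 rose (median 2.27). Among all 12981 genes tested 4.23% rose, and 8.75% of single genes were higher in every 5xFAD than in every WT library. Of 11 T and NK cell genes none reached the filter; their summed level was 0.310 to 0.880 in WT, 2.03 to 3.82 in 5xFAD and 0.670 to 2.42 in 5xFAD+L, with Ncr1 at 0 in every hippocampal library. Of 7 border macrophage genes none of the 3 tested was called, and their summed level was 2.47 to 5.06, 6.87 to 9.38 and 3.18 to 5.36. Neutrophil genes (8 genes, 0.740 to 1.76 in WT and 3.68 to 9.37 in 5xFAD), monocyte genes (4 genes, 0.260 to 0.470 and 0.95 to 2.74) and astrocyte genes (4 genes, 482 to 549 and 598 to 2967) also had higher sums in every 5xFAD than in every WT library, and hippocampal neuron genes had lower ones (7 genes, 1719 to 1911 and 1402 to 1696). Of those tested, 1 of 2 neutrophil genes, 0 of 1 monocyte gene, 1 of 4 astrocyte genes and 0 of 7 neuron genes were called. The part of these cells in the chemokine changes was not tested.

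Within the 5xFAD hippocampal libraries the chemokines did not all move together. 5xFAD replicate 1 held the highest value of its group for 7 of the 10 genes (Ccl2, Ccl3, Ccl4, Ccl5, Ccl12, Cxcl10 and Cxcl16), but not for Ccl6, Ccl9 or Cxcl9. Taking the 8 5xFAD and 5xFAD+L libraries as deviations of log2(FPKM + 1) from their group means, Ccl3 and Ccl4 had a Pearson r of 0.970 with each other, and Ccl12 had an r of 0.973 with Cxcl16 and of 0.835 with Cxcl10. Across these pairs the values were lower, 0.429 between Ccl3 and Cxcl10, 0.699 between Ccl3 and Ccl12 and 0.737 between Ccl4 and Ccl12. Ccl5 went with genes on both sides. Its r was 0.695 with Ccl3, 0.797 with Ccl4, 0.832 with Ccl12, 0.767 with Cxcl16 and 0.425 with Cxcl10. Ccl6 followed neither pair closely, with an r of 0.371 with Ccl3, 0.172 with Ccl4, 0.250 with Ccl12 and -0.052 with Ccl5. Ccl6 lies on the same strand and in the same cluster as Ccl5 and Ccl9, with which its r was -0.052 and 0.558. These r values are descriptions over 8 libraries in which each gene shares the depth of its library.

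**Figure D2:**
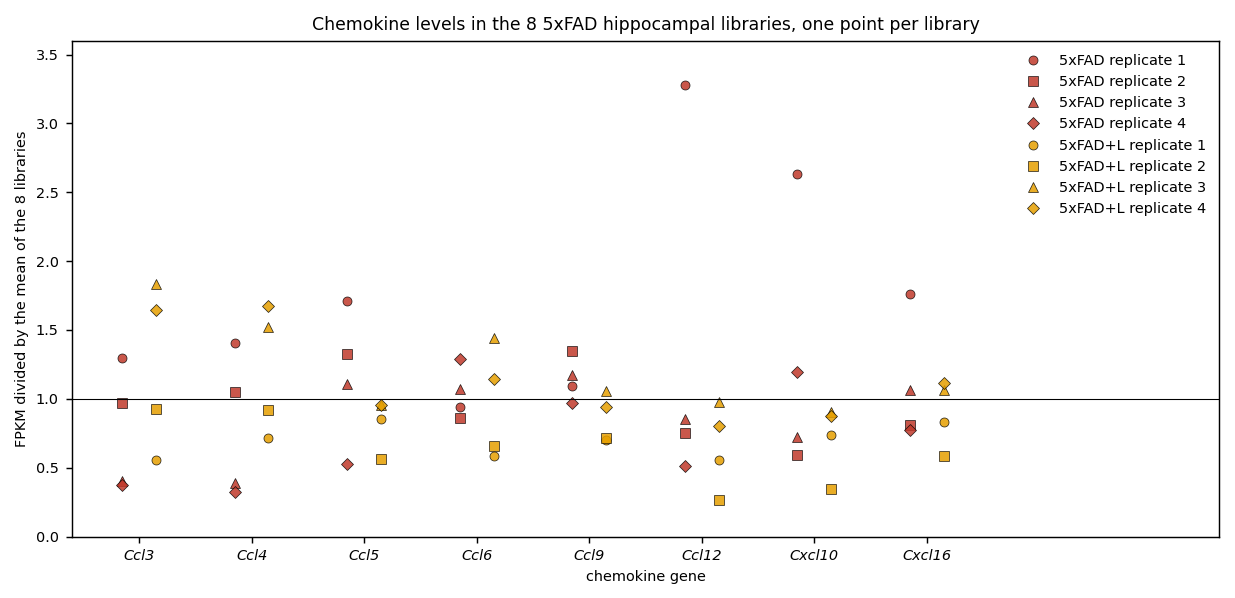
Level of 8 chemokine genes (horizontal axis) in each of the 8 5xFAD and 5xFAD+L hippocampal libraries, as FPKM divided by the mean of the 8 libraries (vertical axis), with a colour per group and a marker shape per replicate number. 5xFAD replicate 1 stands far above the rest for Ccl12 and Cxcl10, whereas 5xFAD+L replicates 3 and 4 are highest for Ccl3 and Ccl4.

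Over all 12 hippocampal libraries the genes most like each chemokine, by Pearson r of log2(FPKM + 1) among 12981 genes, differed between these groups. Ccl3 was most like Ccl4 (r = 0.993), Igf1 (0.963) and Arl11 (0.963), and Ccl4 was most like Ccl3, Arl11 (0.964) and Igf1 (0.949). Ccl6 was most like BC028528 (0.994), Clec7a (0.989), which encodes a lectin of plaque-associated microglia, and Cst7 (0.988). Cxcl10 was most like Gsdmd (0.988), Bin2 (0.985) and the interferon-induced Gbp3 (0.983). Cxcl16 was most like the Fc receptor gene Fcgr1 (0.989), St14 (0.988) and Cd52 (0.981), and Ccl12 was most like Apobec3 (0.972), Fcgr4 (0.971) and Zbp1 (0.967). Ccl5 (Rps2 at 0.961, Ccl12 at 0.9503, Fbxw4 at 0.941) and Ccl9 (Lrrc3 at 0.957, Parp9 at 0.952, Phf11b at 0.948) had lower values. The 12 libraries share the step from WT to 5xFAD, and every r across them includes it.

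Between light-treated and untreated 5xFAD hippocampus none of these genes differed past the thresholds. None of the 8 tested genes was called in either direction by edgeR, against 0.270% of the 12981 genes, and all 10 genes overlapped between the groups. Ccl3 was 5.76, 9.58, 19.1 and 17.1 FPKM in 5xFAD+L replicates 1 to 4 (log2 fold change against 5xFAD 0.69 ± 0.452, adjusted p = 0.427) and Ccl4 was 6.34, 8.2, 13.5 and 14.9 (0.59 ± 0.439, adjusted p = 0.493). Ccl12 was 6.40, 3.09, 11.3 and 9.30 (-1.07 ± 0.539, adjusted p = 0.306) and Cxcl10 was 5.47, 2.55, 6.70 and 6.48 (-0.85 ± 0.465, adjusted p = 0.348). Without 5xFAD replicate 1 the Ccl12 value was -0.09 and that of Cxcl10 was -0.20, so most of the lower mean in treated mice rested on that untreated library. Ccl6 (18.2, 20.3, 44.5 and 35.5), Ccl5 (1.83, 1.21, 2.04 and 2.04), Ccl9 (1.47, 1.5, 2.21 and 1.98) and Cxcl16 (4.86, 3.41, 6.23 and 6.50) had log2 fold changes of -0.11, -0.50, -0.43 and -0.38. Ccl2, which did not pass the filter, was 0.350, 0.130, 0.630 and 0.520. Between the same groups the summed levels of neutrophil genes (3.68 to 9.37 FPKM in 5xFAD and 0.250 to 3.64 in 5xFAD+L), meningeal fibroblast genes (40.2 to 115 and 16.4 to 27.8), border macrophage genes (6.87 to 9.38 and 3.18 to 5.36) and cytokine and NF-kB feedback genes (86.8 to 108 and 57.0 to 67.1) were lower in every treated library. No gene of these lists was called, and the neutrophil sums nearly met. The sums of the other lists overlapped, among them general leukocyte genes (849.7 to 1331 and 629.2 to 1167) and homeostatic microglial genes (472.4 to 653.5 and 386.7 to 568.0). How often list sums separate by chance was not computed. The part of any list in the chemokine values was not tested. Cxcl9 counts summed to 111 over the 4 treated and 40 over the 4 untreated libraries, at 0.630, 0.130, 0.730 and 0.730 FPKM against 0.22, 0.18, 0.07 and 0.23; with no filter its log2 fold change was 1.65 ± 0.59 (adjusted p = 0.202).

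Set against WT, the group with which untreated 5xFAD was also compared, 5xFAD+L hippocampus had higher levels too. Of the 10 genes, 9 were higher in every 5xFAD+L than in every WT library, Ccl2 being the exception, and 7.33% of the tested genes were so. Of the 8 tested, 5 rose past both thresholds, against 2.26% of all genes: Ccl3 (log2 fold change 6.68 ± 0.707, adjusted p = 0.000172), Ccl4 (5.17 ± 0.603), Ccl6 (3.76 ± 0.289), Cxcl10 (3.61 ± 0.577) and Cxcl16 (2.33 ± 0.329). Ccl5 (1.72 ± 0.446, adjusted p = 0.0512) and Ccl12 (2.29 ± 0.611, adjusted p = 0.0591) missed the p threshold and Ccl9 (0.96 ± 0.231, adjusted p = 0.0345) missed the fold threshold. Here too Ccl3, Ccl4, Ccl5 and Cxcl10 were tested only through the 5xFAD and 5xFAD+L libraries. For them passing the filter and being higher than WT are not independent. Without 5xFAD+L replicate 2, which held the lowest value of its group for Ccl5, Ccl12, Cxcl10 and Cxcl16, all 8 tested genes were called.

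**Figure D3:**
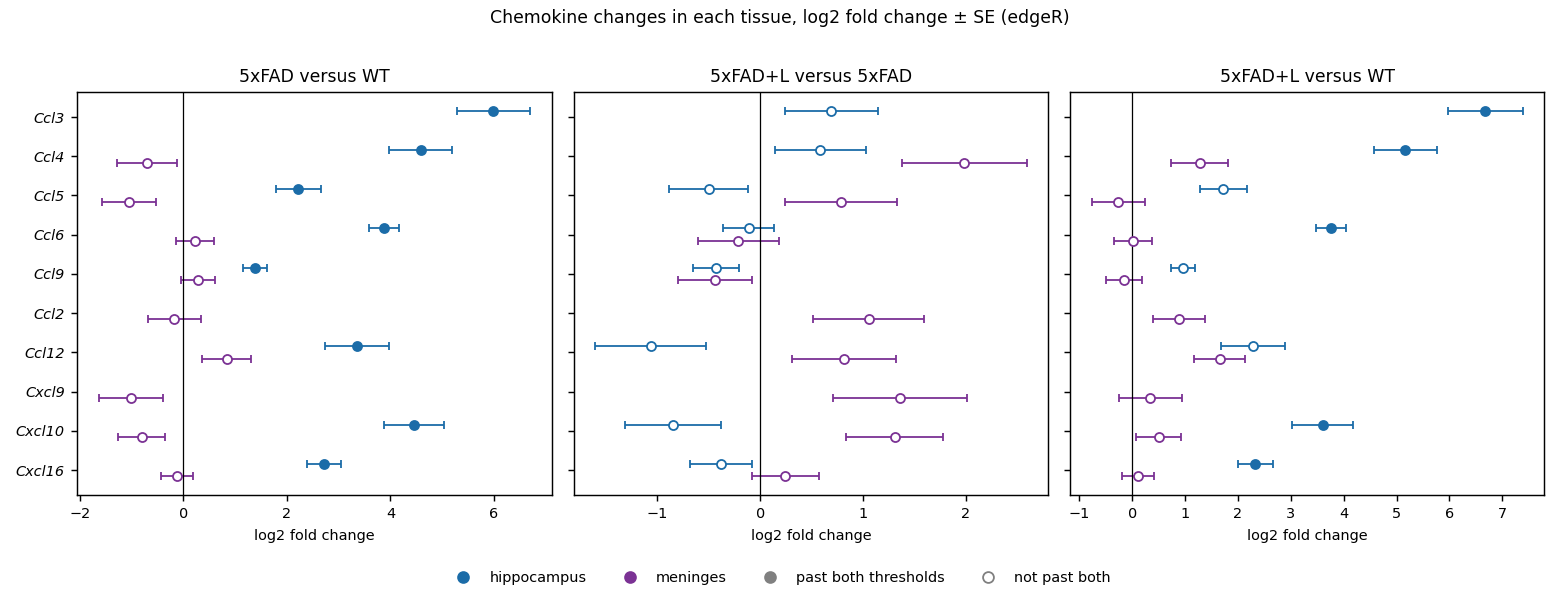
Log2 fold change ± SE from edgeR (horizontal axis) of each chemokine gene (rows) in hippocampus (blue) and meninges (purple) for 5xFAD versus WT, 5xFAD+L versus 5xFAD and 5xFAD+L versus WT, with filled points past both thresholds and genes below the filter left out. Filled points appear in hippocampus only: 8 in the 5xFAD versus WT panel, 0 in the light panel and 5 in the 5xFAD+L versus WT panel.

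In WT mice the meninges already held more of each chemokine than the hippocampus. All 10 genes were higher in meninges by edgeR and in every library, but the background is wide here, since 30.1% of the 15132 genes tested in the joint fit were called higher in meninges and 36.1% were higher in every sample. Cxcl16 had the highest mean FPKM (56.9 ± 14.5, SD, n = 4, against 0.895 ± 0.251 in WT hippocampus), followed by Ccl5 (40.0 ± 29.3 against 0.530 ± 0.108) and Ccl6 (36.1 ± 13.9 against 2.21 ± 0.152); these 3 overlapped in their libraries. Ccl12 (17.5 ± 9.15), Ccl9 (13.5 ± 5.51) and Cxcl10 (10.1 ± 3.65) came next and overlapped too. Cxcl9 (4.90 ± 4.33), Ccl2 (4.36 ± 2.06), Ccl4 (2.61 ± 1.19) and Ccl3 (0.693 ± 0.316) were lowest. Ccl3 had the smallest log2 difference, 2.39 ± 0.722 (adjusted p = 0.00567), which on the log2(FPKM + 1) scale with limma was 0.58 and under the 2-fold threshold, and Cxcl9 was at 1 count over the 4 WT hippocampal libraries. Summed choroid plexus genes were 15570 to 41720 FPKM in WT meninges and 35.9 to 2784 in WT hippocampus. Red blood cell genes (3265 to 11820 and 7.32 to 55.2) and neutrophil genes (536 to 1568 and 0.740 to 1.76) differed too. The part of cell composition in these tissue differences was not tested.

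The change seen in 5xFAD hippocampus was not seen in 5xFAD meninges. Of 10 genes 9 were tested there (Ccl3 did not pass the filter) and none was called, as was none of the 14318 genes (0.00%), of which 574 had an unadjusted p below 0.05. All 10 overlapped between the groups. Ccl12 had the largest positive log2 fold change, 0.83 ± 0.477 (adjusted p = 0.987), at 15.5, 29.5, 7.36 and 17.8 FPKM in WT replicates 1 to 4 and 31.3, 41.5 and 22.3 in 5xFAD replicates 1, 2 and 4. Ccl5 had the largest negative one, -1.05 ± 0.519, at 17.9, 43.9, 18.3 and 80.0 in WT and 14.9, 23.8 and 19.6 in 5xFAD, and without WT replicate 4 it was -0.46. Cxcl10 was 7.65, 13.4, 6.35 and 13.1 in WT and 3.28, 3.67 and 10.4 in 5xFAD (-0.81 ± 0.448). Ccl6, the gene with the highest level in 5xFAD hippocampus, was 52.6, 41.7, 20.9 and 29.4 in WT and 35.0, 55.8 and 36.2 in 5xFAD (0.23 ± 0.367).

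The difference between the tissues was tested directly as an interaction in the joint fit of hippocampus and meninges. The 5xFAD versus WT change was lower in meninges than in hippocampus for 7 of the 10 genes, against 1.64% of the 15132 genes. These were Ccl3 (difference of log2 fold changes -6.62, adjusted p = 0.000988), Ccl4 (-5.27), Cxcl10 (-5.24), Ccl6 (-3.66), Cxcl16 (-2.83), Ccl5 (-3.26, adjusted p = 0.0191) and Cxcl9 (-5.65, adjusted p = 0.0281), whose WT hippocampal level rests on 1 count. For Ccl3 no WT library of either tissue and no 5xFAD meningeal library reached an FPKM of 1. Its passing of the filter and its lower change in meninges are therefore not independent. Ccl2 (-2.31, adjusted p = 0.153), Ccl9 (-1.12, adjusted p = 0.215) and Ccl12 (-2.52, adjusted p = 0.151) also had negative differences that did not pass. The Ccl5 and Cxcl9 calls were lost when single libraries were left out, Ccl5 without WT_HP replicate 1 or 2, 5xFAD_HP replicate 1 or 5xFAD_M replicate 1, and Cxcl9 without WT_HP replicate 1, 2 or 4, 5xFAD_HP replicate 1 or 4 or 5xFAD_M replicate 1, and both calls were lost with limma on log2(FPKM + 1).

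In meninges of light-treated mice several chemokines were higher on average than in untreated 5xFAD mice, without passing the test. None of the 9 tested genes was called, against 0.0140% of genes (2 of 14318, with 1822 at an unadjusted p below 0.05). Ccl4, a close relative of Ccl3, was 7.63, 5.15 and 5.85 FPKM in 5xFAD+L replicates 1, 2 and 4 and 1.5, 1.67 and 1.52 in 5xFAD replicates 1, 2 and 4, a log2 fold change of 1.99 ± 0.606 (adjusted p = 0.291). Cxcl10 was 13.3, 12.5 and 17.1 against 3.28, 3.67 and 10.4 (1.31 ± 0.474, adjusted p = 0.315). Ccl2 was 10.8, 4.26 and 8.90 against 3.80, 3.87 and 4.08 (1.05 ± 0.539, adjusted p = 0.427). For these 3 genes, and for Ccl3 (1.18, 0.960 and 1.89 against 0.480, 0.330 and 0.520), every treated library lay above every untreated library, which 10.1% of the tested genes did, so the 3 tested genes of 9 stand against a wide background.

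The other genes overlapped. Cxcl9 was 7.65, 3.27 and 7.52 FPKM with light and 1.11, 3.56 and 2.57 without (1.36 ± 0.648), and Ccl12 was 93.1, 29.3 and 41.9 against 31.3, 41.5 and 22.3 (0.82 ± 0.508). Ccl5 (0.79), Cxcl16 (0.24), Ccl6 (-0.21) and Ccl9 (-0.44) had smaller log2 fold changes. 5xFAD+L replicate 1 held the highest value of its group for 7 of the 10 genes. Against WT meninges none of the 9 was called (0.0140% of genes), Ccl12 having the largest log2 fold change (1.65 ± 0.475, adjusted p = 0.151), and Ccl3 and Ccl4 were higher in every 5xFAD+L than in every WT library, as 6.99% of tested genes were. With DESeq2 Ccl12 passed in that comparison (log2 fold change 1.63, adjusted p = 0.0315). The Ccl12 values rested largely on 5xFAD+L replicate 1, without which edgeR gave 0.96 against WT and 0.14 against 5xFAD. The light effect did not differ between meninges and hippocampus past the thresholds for any of the 10 genes, against 0.971% of genes, Cxcl10 having the largest difference (2.10, adjusted p = 0.130).

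Genes of several other cell types had positive or negative values in the same meningeal comparison, and none was called. All 13 tested interferon-gamma response genes had positive log2 fold changes with light (median 0.75, against 0.037 over all genes) and none was called. All 9 tested T and NK cell genes (median 0.77; summed level 26.0 to 35.9 FPKM in 5xFAD and 29.5 to 65.1 in 5xFAD+L) and all 6 tested B and plasma cell genes (median 0.97; 155 to 285 and 214 to 694) were positive, as were all 4 red blood cell genes (median 1.02), and none was called. Ptprc was 12.8 to 23.3 FPKM in 5xFAD and 10.5 to 25.8 in 5xFAD+L meninges. Of microglial genes, 6 of 7 homeostatic ones (median 0.29, summed level 140 to 205 and 174 to 258) and 10 of 14 plaque-associated ones (median 0.21, 6386 to 9273 and 6730 to 8789) were positive. Both sums overlapped between the groups. Clec7a of the plaque-associated list was 2.42 to 8.12 FPKM in 5xFAD and 9.43 to 14.3 in 5xFAD+L. Cx3cr1, a receptor gene in neither list, was 4.81 to 9.21 and 12.5 to 17.4. Of all tested genes 10.1% were higher in every treated library. Of 10 tested cytokine and NF-kB feedback genes 5 were positive (median -0.06), and their summed level was 192 to 339 in 5xFAD and 146 to 206 in 5xFAD+L. None of these genes was called. The part of these cells in the chemokine values was not tested.

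Sorted LECs expressed 2 of the 10 genes in every library, Cxcl10 and Cxcl16, and had no counts of 5 others. Ccl3, Ccl4, Ccl5, Ccl6 and Ccl12 had 0 counts in all 10 libraries, which allows up to 3 counts of a library total of 14231415 to 24207326 (counting error only), and Ccl9 had at most 0.0900 FPKM. Cxcl10 was 74.5, 654, 1314 and 160 FPKM in WT replicates 1 to 4, 136, 126 and 542 in 5xFAD replicates 1, 2 and 4, and 578, 890 and 670 in 5xFAD+L replicates 1 to 3. The WT values alone spanned more than a factor of 10. Every treated library lay above every untreated 5xFAD library for Cxcl10, as 3.55% of the 8188 genes tested did, but the log2 fold change of 1.46 ± 0.900 had an adjusted p of 1, and against WT the groups overlapped (0.29 ± 0.822). Lymphatic identity genes did not all go the same way between these groups, and none passed the test. Prox1 (mean 0.347 FPKM in 5xFAD and 2.87 in 5xFAD+L) and Lyve1 (6.24 and 44.3) were also higher in every treated library. Flt4 had a lower mean with light and overlapped (log2 fold change -1.12 ± 0.852). Ccl21a, Pdpn, Mmrn1 and Itga9 had higher means and overlapped, and Reln was not tested. The sum of these 8 lymphatic genes was 1156 to 4503 in 5xFAD and 3079 to 9746 in 5xFAD+L, which overlapped. The part of the lymphatic genes in the Cxcl10 value was not tested.

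Cxcl16 was 206, 46.9, 112 and 65.4 FPKM in WT LECs, 121, 168 and 27.7 in 5xFAD and 82.9, 121 and 109 in 5xFAD+L, with log2 fold changes of -0.05 ± 0.816 (5xFAD versus WT), -0.44 ± 0.874 (5xFAD+L versus 5xFAD) and -0.49 ± 0.824 (5xFAD+L versus WT). Neither gene was called in any LEC comparison, where 0.00%, 0.00% and 0.0122% of the 8188 genes were called. At an unadjusted p below 0.05 there were 312, 328 and 550 genes. Ccl2 was present in 5xFAD replicate 2 (77.6 FPKM, 911 counts) and replicate 1 (1.17 FPKM) and at 0 in the other 8 libraries, and Cxcl9 was present in 5xFAD+L replicate 2 alone (15.95 FPKM, 1132 counts). Each gene was thus abundant in 1 library and at 0 in most or all others.

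The tables of tissue and LECs were normalized separately, so their levels are given side by side and were not tested. Cxcl10 was 3.28 to 17.1 FPKM in whole meninges and 74.5 to 1314 in LECs, and Cxcl16 was 37.5 to 79.5 in whole meninges and 27.7 to 206 in LECs. Ccl5 and Ccl6, at 14.9 to 80.0 and 20.9 to 55.9 FPKM in whole meninges, had no counts in LECs, where Ptprc had none either. The LECs had been through digestion and sorting and the whole tissue had not, and the part of that step in the Cxcl10 level was not tested.

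Of the receptors of these ligands, Ccr1, Ccr2, Cxcr3 and Cxcr6 had group means of at most 0.575 FPKM in hippocampus and did not pass the filter there. In meninges Ccr2, the receptor of Ccl2 and Ccl12, was 2.67 to 5.42 FPKM in WT, 5.99 to 9.54 in 5xFAD and 11.03 to 12.13 in 5xFAD+L, with no overlap between the 3 groups, and did not pass the test (5xFAD+L versus WT 1.63 ± 0.265, adjusted p = 0.0808; 5xFAD+L versus 5xFAD 0.66 ± 0.283, adjusted p = 0.365). Cxcr3, the receptor of Cxcl9 and Cxcl10, was 0.860 to 1.57 in 5xFAD and 1.73 to 4.39 in 5xFAD+L meninges (1.51 ± 0.544, adjusted p = 0.315). Ccr1 (1.35 to 3.93 in 5xFAD and 3.27 to 5.52 in 5xFAD+L) and Cxcr6 (2.19 to 7.83 and 3.85 to 7.13) overlapped. Of all tested genes, 10.1% were higher in every treated than in every untreated 5xFAD meningeal library and 6.99% than in every WT library. Ccr1, Ccr2, Cxcr3 and Cxcr6 were at 0 in all 10 LEC libraries.

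**Figure D4:**
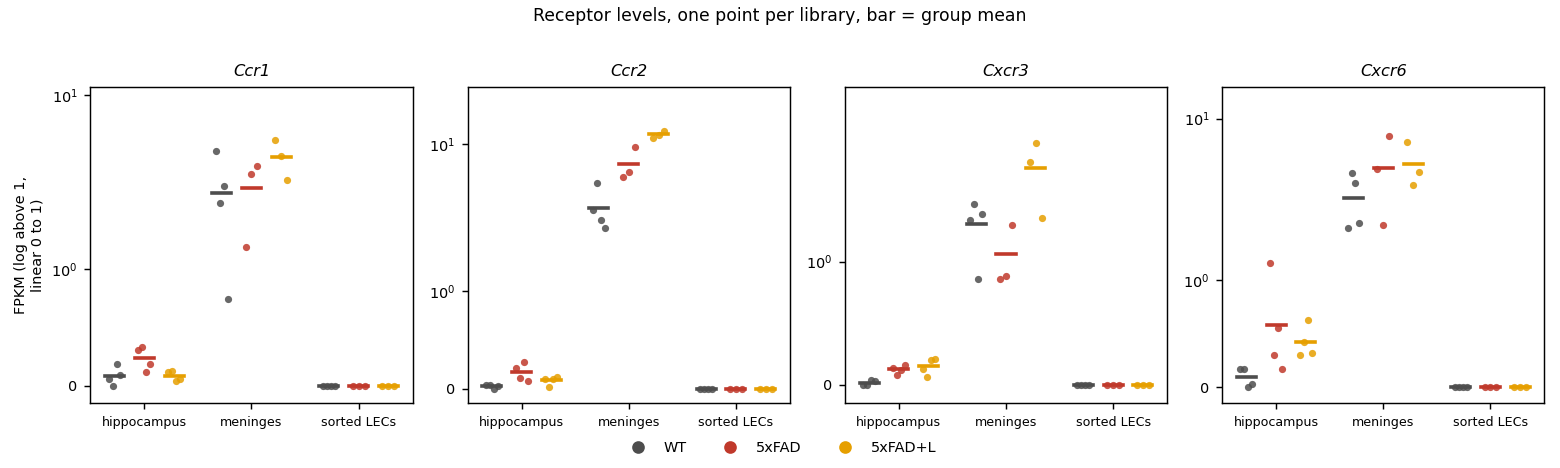
FPKM of 4 receptors of these chemokines (vertical axis, logarithmic above 1 and linear from 0 to 1) in each library of hippocampus, meninges and sorted LECs, with WT in grey, 5xFAD in red and 5xFAD+L in orange, a point per library and a bar at the group mean. In meninges the Ccr2 means run from 3.66 in WT through 7.31 in 5xFAD to 11.6 in 5xFAD+L, while Ccr1, Ccr2, Cxcr3 and Cxcr6 stay at 0 in LECs.

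Other chemokine genes also rose in 5xFAD hippocampus. Of 27 further ligand genes 11 were tested and 3 rose, where 4.23% of all tested genes did, namely Cxcl5 (log2 fold change 2.42 ± 0.410), a neutrophil attractant, Ccl19 (3.32 ± 0.830), a ligand of Ccr7, and Pf4 (1.63 ± 0.434), known from platelets and border macrophages. The median log2 fold change of the 11 was 0.28, against 0.015 over all genes tested. Among the receptor genes Cx3cr1 (1.29 ± 0.158), the fractalkine receptor of microglia, and Ccrl2 (2.32 ± 0.389) rose. In 5xFAD+L against WT, Cxcl5 (2.86 ± 0.410), Cx3cr1 (1.15 ± 0.157) and Ccrl2 (1.57 ± 0.395) were called, and in the interaction of tissue with 5xFAD, Ccl19 (-3.75) and Cxcl13 (-4.62), a B cell attractant, were called lower in meninges. None of the ligand or receptor genes on these lists was called for light in any tissue. Interferon-gamma response genes rose widely in 5xFAD hippocampus, 11 of 12 tested (median 2.16), among them Igtp (2.26 ± 0.218) and Gbp3 (2.45 ± 0.276), and Ifng itself was at 0 counts in all 12 hippocampal libraries. Of 9 tested cytokine and NF-kB feedback genes 2 rose, Icam1 (1.35 ± 0.306), an adhesion molecule, and Il1a (1.92 ± 0.536), and the median was 0.31.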

How the data were processed

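RNA-seq libraries were made with Smart-seq2 and sequenced on an Illumina NovaSeq. The authors deposited 2 tables, hippocampus with meninges (22 libraries) and LECs (10 libraries). Each held expected counts per gene, with no normalization, and FPKM, which the authors scaled by transcript length and library size. Between 81.6% and 89.6% of counts above 0 were whole. The study's methods name fastp and RSEM, while the submitters' processing notes name Trimmomatic, HISAT2, StringTie and DESeq2 with mm10. The software that made these values was therefore not settled. Related chemokine genes can share reads, and 29 of 243 chemokine counts above 0 were not whole.

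Expected counts were rounded to whole numbers for the quasi-likelihood test of edgeR 4.0.16 (R 4.3.3) with TMM scaling, with the 3 groups of a tissue in 1 fit and a joint fit of hippocampus and meninges (22 libraries, 15132 genes) for tissue differences. The tests took genes at an FPKM of 1 or above in 3 or more libraries of the fit, and genes were called at a Benjamini-Hochberg adjusted p below 0.05, over all genes tested, and a change of at least 2-fold. SE is the log2 fold change divided by the square root of F. The text names all 10 chemokine genes, called genes of the 2 other chemokine lists, 4 main receptors, at most 3 called genes of the interferon-gamma and cytokine lists by adjusted p, and the 3 genes most like each chemokine without Gm or Rik names. The members and the gene lists were chosen with earlier results of these data known. Alternatives used DESeq2 1.42.0, limma 3.58.1 (pseudocounts of 1 and 0.1), other scaling, filters and fits, and left out each library. The edgeR step was tested on simulated data. The shorter kB and interferon motif letters were chosen after the stricter forms had been searched. Each library came from 1 mouse. Chi-square values of replicate pairs were at least 9.25 per degree of freedom, so no libraries of the same group were duplicates. Libraries of different groups were not compared in this way. Gene symbols came from the table of LECs and were joined to the other by gene identifier. Some genes that this rule would name are not reported here.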

Additional observations from a re-analysis of the deposited data

Results flagged for a closer look

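In 43 groups of 4 libraries with values that differ, 5 chemokine values stood apart from the rest of their group by Dixon's test at 95%, a test that chance passes in about 1 of 20 groups. In 5xFAD hippocampus Ccl12 was 37.8 FPKM in replicate 1, with the next highest library at 9.86, and Ccl2 was 1.20 in the same library, with the next at 0.600. In 5xFAD+L hippocampus Cxcl9 was 0.130 FPKM in replicate 2, with the next lowest library at 0.630. The other 2 rest on values close to 0: Cxcl9 at 0.0200 in 1 WT hippocampal library and Ccl9 at 0.0200 in 1 WT LEC library, with the other libraries of those groups at 0.

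The 5xFAD versus WT change differed between meninges and hippocampus, by the interaction term in edgeR, for Ccl3 (-6.62 on the log2 scale), Ccl4 (-5.27), Ccl5 (-3.26), Ccl6 (-3.66), Cxcl9 (-5.65), Cxcl10 (-5.24) and Cxcl16 (-2.83), each smaller in meninges. Ccl3 passed the filter of that fit only through 5xFAD and 5xFAD+L libraries. The tissues came as separate libraries in 1 table, and depth was lower in meninges.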

How the results depend on the processing

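Of 1564 recomputed values of single chemokine genes 1487 kept their direction and side of the thresholds, 15 newly passed, 15 no longer passed and 47 changed sign; none of those 47 was called in either setting. Of 209 recomputed counts of called chemokine genes 207 stayed within 1.5 times. In hippocampus 5xFAD+L versus WT the count was 5 to 8 when single libraries were left out (8 without 5xFAD+L_HP replicate 2). In meninges 5xFAD+L versus WT it was 1 with DESeq2; the cause was not tested. Same-numbered samples of different groups were compared within each tissue. Their deviations had an r of -0.280 to 0.0900 in hippocampus and -0.0330 to 0.0120 in LECs. In meninges r was -0.310 to 0.244, with 2 of 9 pairs above 0.1. The numbers thus gave no clear sign of pairing between groups of a tissue. Whether hippocampus and meninges came from the same mice was not tested, and the joint fit took its 22 libraries as independent. With the replicate number as a block all 12 counts equalled those without it (8 and 5 in hippocampus against WT, 10 for WT meninges versus hippocampus, 7 for the interaction, 0 elsewhere).

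Sign changes outside left-out libraries were small log2 values. For 5xFAD+L versus WT in meninges, Ccl6 was -0.01 with median-of-ratios size factors and with DESeq2, -0.02 with limma at either pseudocount and -0.22 with the replicate block, under which Cxcl16 was -0.01. In LECs Cxcl16 was 0.31 and 0.32 (5xFAD+L versus 5xFAD, limma with pseudocounts of 1 and 0.1), 0.17 with both (5xFAD+L versus WT) and 0.03 with only the compared groups (5xFAD versus WT). For the difference of the light change between tissues, Cxcl9 was 0.68 and 0.23 with limma at pseudocounts of 1 and 0.1, and Ccl9 was 0.05 at 0.1. With single libraries left out, the ranges that crossed 0 were, in hippocampus 5xFAD+L versus 5xFAD, -0.39 to 0.07 (Ccl6). In meninges 5xFAD versus WT they were -0.41 to 0.13 (Ccl2), -0.55 to 0.08 (Cxcl16), -0.02 to 0.45 (Ccl6) and -0.09 to 0.55 (Ccl9). In meninges 5xFAD+L versus WT they were -0.38 to 0.11 (Ccl9), -0.52 to 0.27 (Ccl6), -0.09 to 0.23 (Cxcl16) and -0.65 to 0.31 (Ccl5), and for 5xFAD+L versus 5xFAD -0.74 to 0.04 (Ccl6). In LECs they were -0.62 to 0.80 (Cxcl16, 5xFAD versus WT), -0.07 to 1.20 (Cxcl10, 5xFAD+L versus WT), -0.77 to 0.36 (Cxcl16, 5xFAD+L versus WT) and -0.85 to 0.19 (Cxcl16, 5xFAD+L versus 5xFAD). For the light difference between tissues they were -0.22 to 0.34 (Ccl9), -0.63 to 0.15 (Ccl6) and -0.65 to 0.07 (Cxcl9).

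Counts over all genes moved more. They were 556 in hippocampus 5xFAD versus WT (318 to 1108 over the settings), 35 for 5xFAD+L versus 5xFAD (0 to 192) and 306 for 5xFAD+L versus WT (186 to 466). In meninges they were 2 for each light comparison (0 to 72 and 0 to 373), and in LECs 0, 0 and 1 (up to 185, 357 and 464, all with DESeq2). The interactions gave 256 (132 to 469) and 147 (10 to 575). In LECs the spread between libraries limits what a test of these genes can show, and 8 of the 10 genes could not be tested there.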
